A study of Mus musculus with 12 samples.

Results

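Pressure overload was compared with sham surgery in heart muscle cells of mice that carried a short hairpin RNA (shRNA) against Uhrf1. The comparison set 3 arrays of cells taken 1 week after transverse aortic constriction (TAC), surgery that tightens the aortic arch so that the left ventricle pumps against high pressure, against 3 arrays of sham-operated counterparts. These are 6 of the 12 arrays of the series, and they were chosen by surgery and hairpin as the labels give them, not by any measured value. Of the 45281 probes on the bead array, 15118 were tested because 3 or more of the 12 arrays detected them at a detection p below 0.01, and they represent 8746 named genes.

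Cardiomyocytes had been isolated from the left ventricle of male C57Bl6/J mice with a labelled age of 8 weeks, and their total RNA was hybridised to Illumina arrays. The TAC shUhrf1 group had received AAV9, an adeno-associated virus that infects heart muscle, with sh-Uhrf1 #1 as pups and later TAC. The sham shUhrf1 group had received the same virus and sham surgery. In the TAC shctrl and sham shctrl groups the virus carried a scrambled shRNA; these 6 arrays enter here through the shared estimate of the spread and the test of whether the TAC responses differed. Animals of all 4 groups thus carried an AAV9 hairpin virus, and sh-Uhrf1 #1 is a single hairpin whose driving promoter the labels do not give. The series describes 4 samples in triplicate and does not state whether the 3 arrays of a group are separate animals, so p-values measure the spread between arrays, which may be technical.

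A ventricle under pressure overload enlarges its muscle cells and returns to part of the fetal gene programme, with natriuretic peptides, skeletal muscle actin and the slow beta myosin heavy chain as textbook markers. Fibroblasts lay down collagen and other extracellular matrix, immune cells enter, and adult genes of ion currents and metabolism tend to decline. UHRF1, the product of Uhrf1, binds hemimethylated DNA behind the replication fork and recruits the maintenance DNA methyltransferase DNMT1.

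Values below are normalized log2 intensities. A difference is TAC minus sham on that scale, ± SE from limma, and a gene passed, and is said to have risen or fallen, when its p-value, adjusted by Benjamini-Hochberg across the tested probes, was below 0.05. Unless shctrl is named, "TAC arrays" and "sham arrays" are those with the Uhrf1 hairpin. Where a gene was detected on no sham array, its fold is a lower bound, "at least N-fold", taken against the lowest detected signal of each sham array or the gene's own signal, whichever was higher.

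Uhrf1, the target of the hairpin, measured 4.68, 5.34 and 6.06 on the TAC arrays, against 4.74, 4.41 and 4.46 on the sham arrays. It was detected on 2 TAC arrays and on no sham array, and the groups overlapped. Against the lowest detected signals of the sham arrays Uhrf1 was at least 1.10-fold higher after TAC, and the test did not pass (adjusted p = 0.136). With the scrambled hairpin Uhrf1 measured 6.14, 7.11 and 6.89 after TAC, above every TAC array with the Uhrf1 hairpin, against 4.98, 4.89 and 4.76 after sham surgery, where no array detected it, and was at least 2.56-fold higher after TAC. The fitted difference between the responses did not pass (adjusted p = 0.475), and both responses in it are set against sham signals not above background.

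Between 14440 and 14908 probes were detected on the TAC arrays and between 13113 and 13792 on the sham arrays. The first principal component of the 6 arrays held 51.0% of the variance and parted the surgeries, with values of 10.1 to 36.6 on the TAC arrays and of -38.0 to -16.8 on the sham arrays. Sham array 2 stood apart at -38.0, the other sham arrays being at -17.5 and -16.8. All 11 cardiomyocyte markers on the array were detected on every array, with a mean level of 13.75 to 13.90 on the TAC arrays and 13.96 to 14.00 on the sham arrays. Markers of other heart cells were also detected, and sham array 2 was low for them. The mean of 12 fibroblast markers was 7.93, 7.53 and 8.08 on the TAC arrays, against 7.08, 5.78 and 6.97 on the sham arrays. The mean of 10 macrophage and monocyte markers was 8.25, 7.48 and 8.09 on the TAC arrays, against 6.95, 5.98 and 6.92 on the sham arrays. For 13 endothelial markers the mean was 7.42, 7.27 and 7.72 on the TAC arrays, against 7.81, 6.50 and 7.92 on the sham arrays. On the shUhrf1 arrays 7 of 8 lymphocyte markers and all 5 adipocyte markers were undetected, Gzmm being the exception, and so were the neutrophil markers Cxcr2, Retnlg, Mpo and Elane. More cells of a type and more RNA per cell cannot be told apart in such a preparation, and the part of these cells in the results below was not tested.

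**Figure D1:**
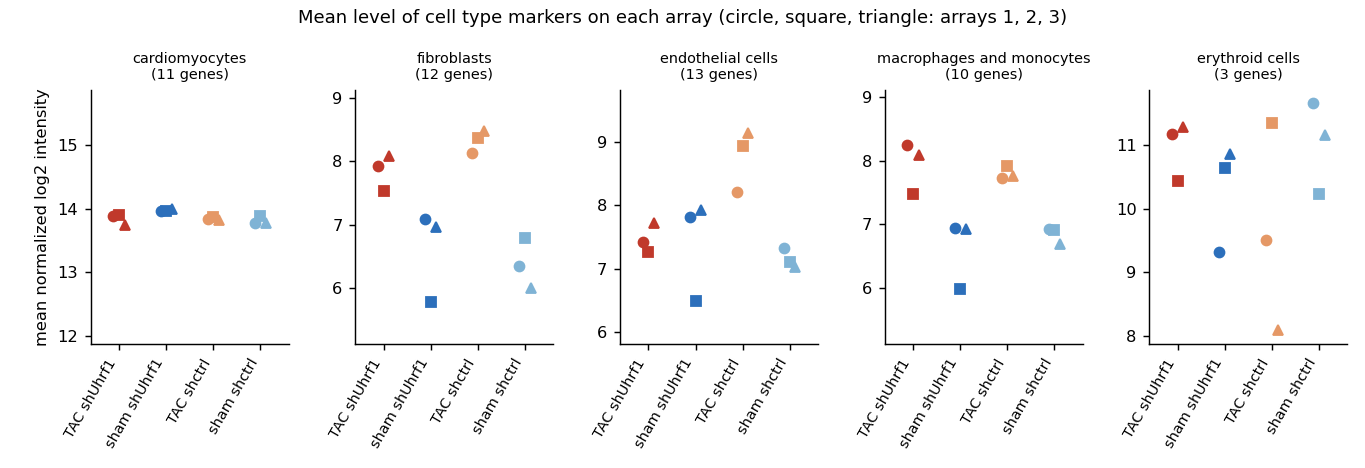
Mean normalized log2 intensity of the tested markers of 5 cell types on each of the 12 arrays, 1 panel per cell type; every vertical axis spans 4 log2 units but starts at its own value. Cardiomyocyte markers lie within 13.75 and 14.00 on the shUhrf1 arrays, and the square of sham shUhrf1 (array 2) is the lowest of its group for fibroblast, endothelial and macrophage markers.

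TAC changed 485 of the 8746 genes (5.55%) with the Uhrf1 hairpin: 346 rose (3.96%) and 139 fell (1.59%). Among the genes tested, 23 entered through the TAC shUhrf1 arrays alone, which fixed the direction of their difference, and 8 of these rose. Of the genes that fell, 1 entered through the sham shUhrf1 arrays alone, so its direction was fixed likewise. Of the 15118 probes 771 (5.1%) passed. The rises were the larger changes. At least 2-fold rises numbered 177 (2.02%) and at least 2-fold falls 17 (0.194%), and the median difference was 1.01 among the genes that rose, -0.73 among those that fell and 0.01 over all genes. The genes that rose had a median level of 6.11 on the sham arrays, and those that fell of 8.28, against 7.31 over all genes. The TAC arrays all lay above the sham arrays for 345 of the 346 genes that rose, the exception being Apobec1, and below them for all 139 genes that fell. Over all genes tested the groups did not overlap for 1362 genes with TAC above (15.6%) and for 1153 with TAC below (13.2%). Genes detected on all 3 TAC arrays and no sham array numbered 187 (2.14%), and the converse held for 6 (0.0686%).

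The split between rises and falls depended on how the arrays were put on a common scale. With each array scaled to its median in place of quantile normalization, the median of all genes moved up to 0.45, and 2005 genes rose and 13 fell. In the authors' deposited value table, with the same fit, 293 rose and 205 fell. The sizes depended on the processing as well. For the 346 genes that rose the median of 1.01 was 0.59 when the arrays were quantile-normalized with no background correction and 0.37 in the authors' deposited value table, and for the 139 that fell the median of -0.73 was -0.52 and -0.41. Single arrays mattered too. Without sham array 2 the calls numbered 117, without TAC array 3 120 and without TAC array 1 151, while without sham arrays 1 and 3 they numbered 310 and 260. In each of the 12 fits that left out 1 array, 89 of the 485 genes passed, 81 of them higher and 8 lower; these are called the steady genes below. Of the changed genes, 159 had more than 1 probe, and for 143 of them all probes pointed the same way, with all probes past the threshold for 50.

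**Figure D2:**
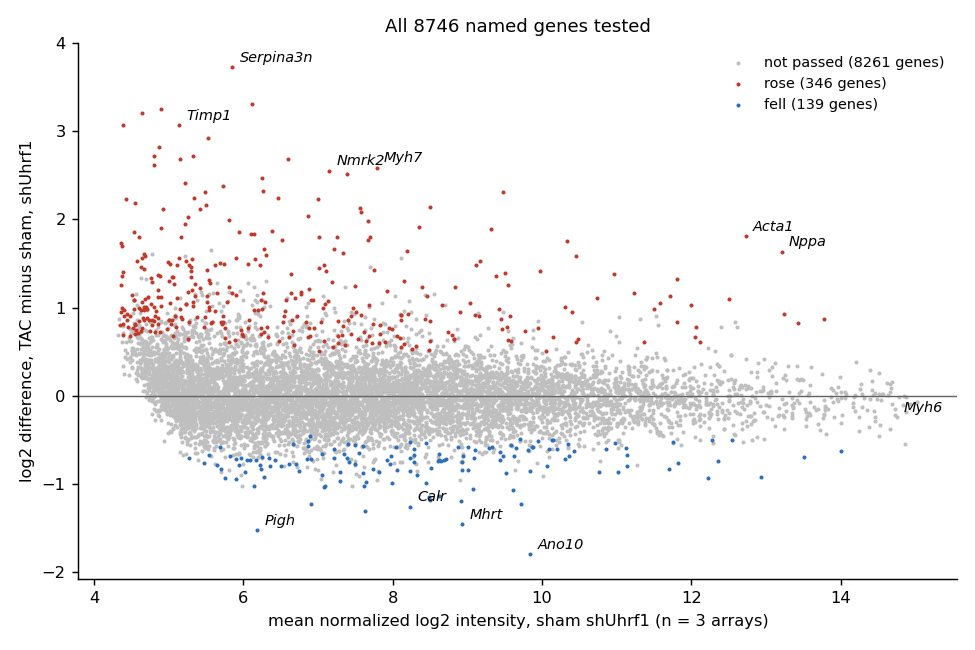
Difference between TAC and sham (log2, vertical axis) against the mean normalized log2 intensity on the 3 sham shUhrf1 arrays (horizontal axis) for the 8746 named genes; red points rose, blue points fell and grey points did not pass. The 346 rises reach 3.73 and have a median sham level of 6.11, against 7.31 over all genes, while the 139 falls reach -1.80.

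The largest rises were mostly of matrix genes, and the steepest of all was that of Serpina3n, an acute-phase inhibitor of serine proteases. Serpina3n measured 10.62, 8.38 and 9.74 on the TAC arrays, against 6.78, 5.38 and 5.40 on the sham arrays, and rose by 3.73 ± 0.57, or 13.3-fold (adjusted p = 0.00453). Its TAC arrays were spread widely, yet the lowest lay above the highest sham array. Of the 15 genes with the largest rises, 11 encode collagens, microfibril or elastic fibre proteins, the thrombospondin family member Comp, the cross-linking enzyme Lox or the metalloproteinase inhibitor Timp1. The remaining genes were Serpina3n, Lgals3, the sarcomere gene Myh7 and Nmrk2. Of the 15 largest falls, Ano10, Pigh and Ppil1 were steady. All 15 rises and all 15 falls had groups that did not overlap, which the rule for naming them required.

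**Figure D3:**
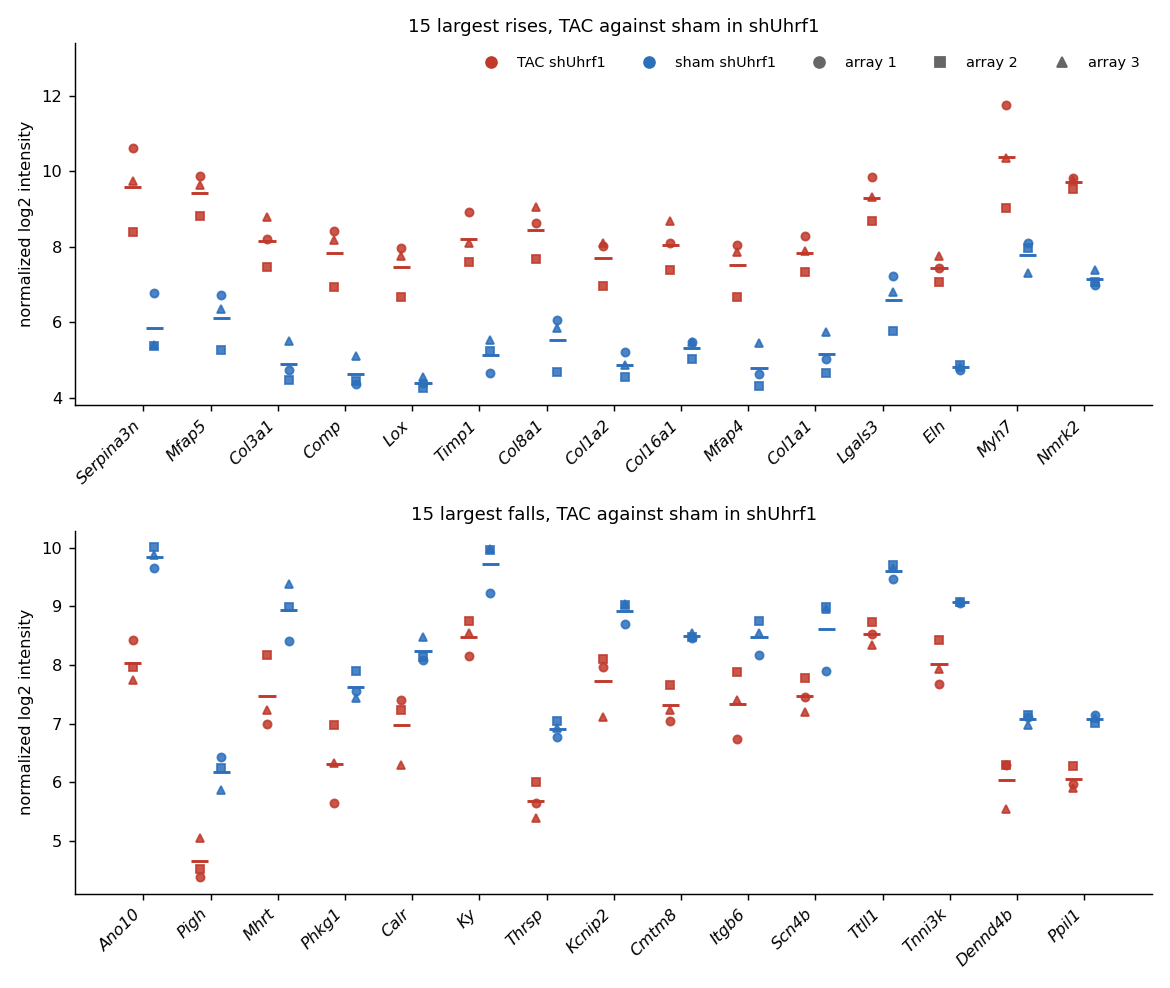
Normalized log2 intensity on each array for the 15 genes with the largest rises (top) and the 15 with the largest falls (bottom); TAC shUhrf1 in red stands left of sham shUhrf1 in blue, points are arrays and bars are means of 3 arrays. The rises span 2.55 to 3.73 log2 units and the falls -1.80 to -1.03.

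Fibrillar collagens, the load-bearing fibres of scar and interstitium, rose together: 4 of the 6 tested passed, all 4 steady, with a list median of 2.50. Col1a1, an alpha chain of type I collagen, measured 8.29, 7.33 and 7.88 on the TAC arrays, against 5.03, 4.66 and 5.75 on the sham arrays, and rose by 2.69 ± 0.28 (adjusted p = 4.90e-04). Its partner chain Col1a2 measured 8.01, 6.97 and 8.10 on the TAC arrays, against 5.21, 4.55 and 4.86 on the sham arrays (difference 2.82 ± 0.36, adjusted p = 0.00184). Both type I chains were detected on all TAC arrays and on 1 sham array. Col3a1, the chain of type III collagen that is abundant in young scar, measured 8.21, 7.47 and 8.78 on the TAC arrays, against 4.73, 4.46 and 5.51 on the sham arrays, and rose by 3.25 ± 0.33 (adjusted p = 3.97e-04); it too was detected on 1 sham array. Col5a1, a chain of the type V collagen that nucleates fibrils, rose by 2.32 ± 0.37 (adjusted p = 0.00594). With no background correction the list median was 1.40, and in the authors' deposited value table it was 0.85. The same settings gave 0.54 and 0.29 for the other collagens, 0.49 and 0.41 for elastic fibre genes, 0.86 and 0.50 for matricellular genes, and 0.61 and 0.41 for macrophage markers.

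Among the other collagens 6 of 10 rose, and all 10 had a positive difference (median 1.26). Col8a1, a short-chain network collagen of vessels and valves, measured 8.62, 7.68 and 9.06 on the TAC arrays, against 6.07, 4.68 and 5.84 on the sham arrays, and rose by 2.92 ± 0.37 (adjusted p = 0.00169). Col16a1, a fibril-associated collagen, measured 8.10, 7.37 and 8.68 on the TAC arrays, against 5.47, 5.02 and 5.49 on the sham arrays (difference 2.72 ± 0.32, adjusted p = 0.00112). Both were steady. The basement membrane chain Col4a1 rose by 1.25 ± 0.25, the microfibrillar chain Col6a1 by 1.66 ± 0.40 and the fibril-associated Col14a1 by 1.46 ± 0.30 (adjusted p = 0.0147, 0.0338 and 0.0183). Each of these 3 passed in 9 of the 12 fits without 1 array, the highest adjusted p being 0.0685, 0.140 and 0.0875, all without TAC array 3. A second probe of Col14a1 had a difference of 0.17 and did not pass. Col8a2, detected on no sham array, was at least 1.31-fold higher (adjusted p = 0.0469) and passed in 4 of the 12 fits.

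Enzymes that process collagen had 2 of 15 higher and a median of 0.29, or 0.06 with the genes undetected in sham at their bounds. The 2 that rose, Lox and Loxl1, are the lysyl oxidases that cross-link collagen and elastin, and both were steady. Lox measured 7.95, 6.68 and 7.76 on the TAC arrays, against 4.38, 4.26 and 4.54 on the sham arrays, where it was not detected, and was at least 4.72-fold higher (adjusted p = 3.97e-04). Loxl1 measured 9.80, 9.15 and 10.02 on the TAC arrays, against 7.71, 7.08 and 7.93 on the sham arrays, a rise of 2.08 ± 0.28 (adjusted p = 0.00224).

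Elastic fibre and microfibril genes rose for 5 of 9, and Mfap5, Mfap4 and Eln were steady. The list median was 1.04, or 0.64 with the 3 genes undetected in sham at their bounds. Mfap5, a microfibril-associated glycoprotein that also marks a fibroblast subset, measured 9.86, 8.80 and 9.63 on the TAC arrays, against 6.73, 5.27 and 6.35 on the sham arrays, and rose by 3.31 ± 0.33 (adjusted p = 3.91e-04); 2 sham arrays detected it. Mfap4 measured 8.04, 6.66 and 7.86 on the TAC arrays, against 4.64, 4.32 and 5.44 on the sham arrays (difference 2.72 ± 0.45, adjusted p = 0.00705); 1 sham array detected it. Eln, which encodes elastin itself, measured 7.45, 7.07 and 7.76 on the TAC arrays, against 4.73, 4.87 and 4.82 on the sham arrays. No sham array detected it, so that it was at least 4.60-fold higher (adjusted p = 0.00302). Mfap2 and Emilin1 were at least 1.5-fold and 1.47-fold higher (adjusted p = 0.0301 and 0.0452), in 7 and 3 of the 12 fits.

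The list of matricellular genes holds many whose secreted products signal to cells rather than build fibres. It had the highest share of rises of the lists in the matrix block, 9 of 12, of which 6 were steady (median 1.59). Comp measured 8.41, 6.93 and 8.18 on the TAC arrays, against 4.37, 4.43 and 5.11 on the sham arrays, which did not detect it, and was at least 6.13-fold higher (adjusted p = 0.00442). A second Comp probe differed by 1.06 and did not pass (adjusted p = 0.0928). Fstl1, a secreted follistatin-like glycoprotein, measured 8.75, 8.39 and 8.97 on the TAC arrays, against 6.94, 5.70 and 6.74 on the sham arrays, and rose by 2.24 ± 0.28 (adjusted p = 0.00154). Fibronectin, from Fn1, rose by 2.24 ± 0.29 and the CCN family member Ccn5 by 2.03 ± 0.33 (adjusted p = 0.00184 and 0.00633). Proteoglycans had 3 of 9 higher (median 0.81, 0.21 with bounds). Bgn, which encodes biglycan, measured 12.02, 11.30 and 12.05 on the TAC arrays, against 9.98, 8.51 and 9.95 on the sham arrays, a steady rise of 2.31 ± 0.36 (adjusted p = 0.00517). Lumican, from Lum, rose by 1.62 ± 0.39 but passed in 9 of the 12 fits, with an adjusted p of 0.140 without TAC array 3, and fibromodulin, from Fmod, in 5 of 12, with 0.141 without TAC array 3.

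Matrix turnover genes rose on both sides. Of 6 metalloproteinases 3 rose, and of 8 protease inhibitors 3 rose. Timp1, the tissue inhibitor of metalloproteinases, measured 8.92, 7.59 and 8.10 on the TAC arrays, against 4.65, 5.25 and 5.52 on the sham arrays, and rose by 3.07 ± 0.28 (adjusted p = 2.18e-04); 1 sham array detected it. Serpinf1, a secreted serpin also known as pigment epithelium-derived factor, measured 10.13, 9.40 and 10.17 on the TAC arrays, against 8.06, 6.14 and 7.97 on the sham arrays (difference 2.51 ± 0.42, adjusted p = 0.00732); its second probe differed by -0.17 and did not pass. Among the proteases Mmp2, a gelatinase, rose by 2.23 ± 0.48, and Mmp14, which activates it at the cell surface, by 2.16 ± 0.39 (adjusted p = 0.0215 and 0.0105). Both lost their call without TAC array 3, at adjusted p = 0.0823 and 0.0554. Mmp23 measured 7.27, 6.78 and 7.07 on the TAC arrays, against 5.81, 5.76 and 5.85 on the sham arrays, a steady rise of 1.23 ± 0.17 (adjusted p = 0.00222).

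**Figure D4:**
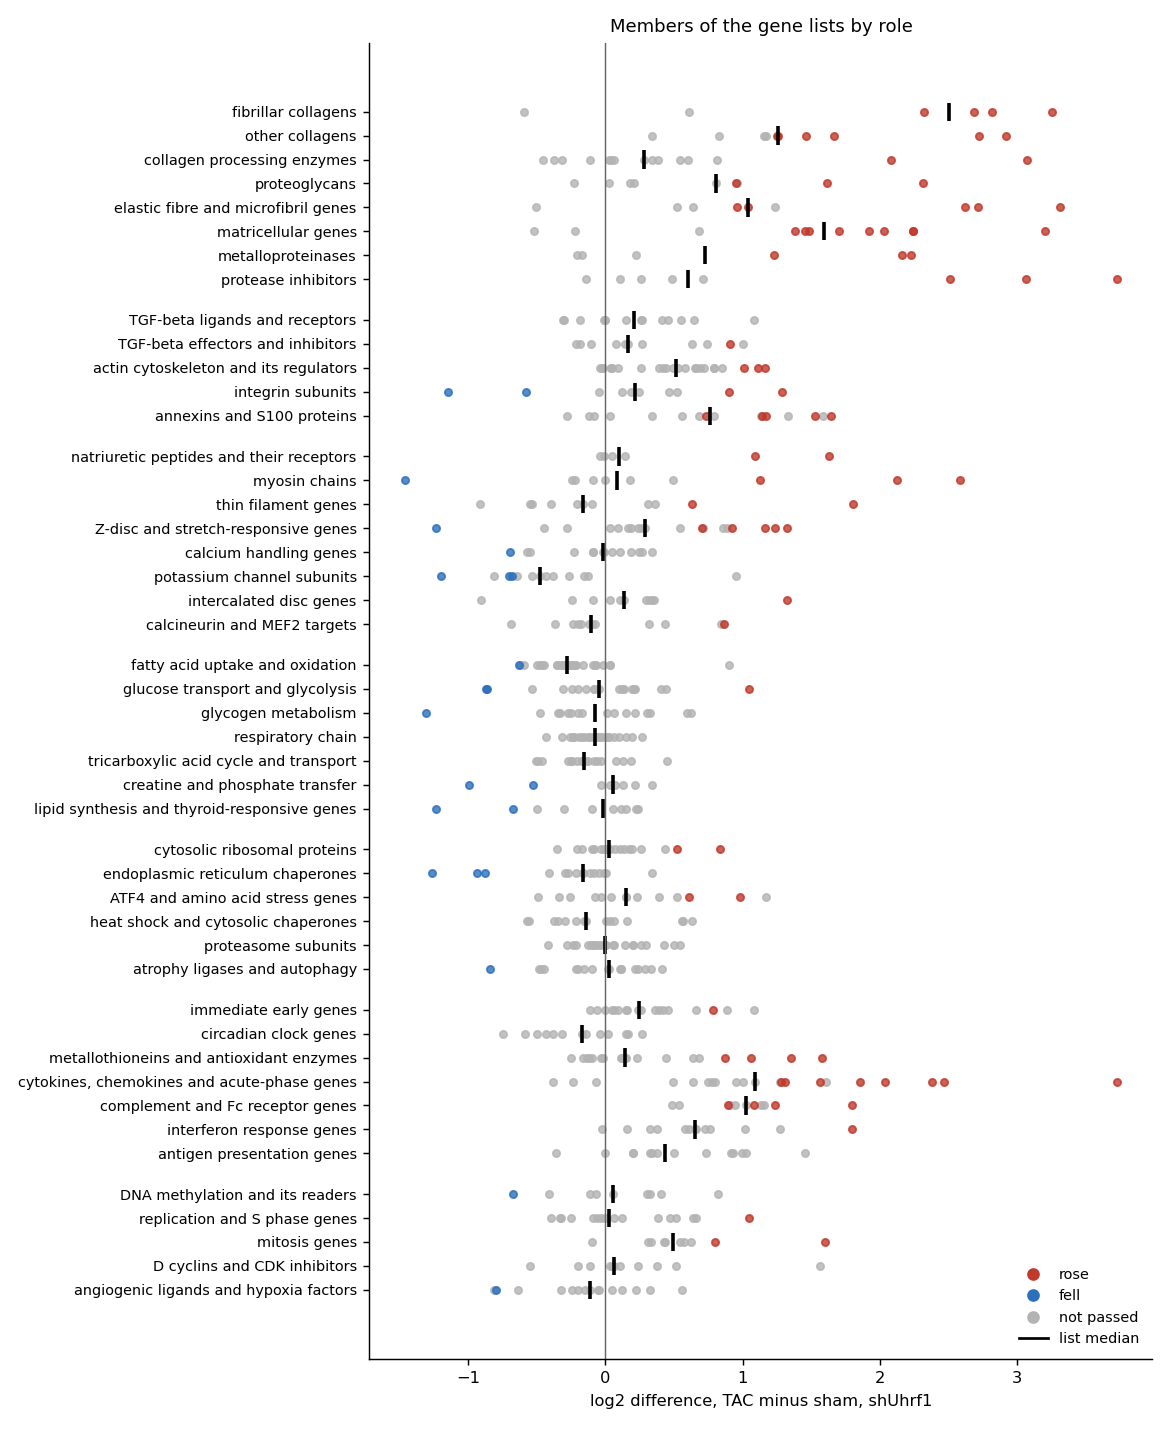
Difference between TAC and sham with the Uhrf1 hairpin (log2, horizontal axis) for each tested member of the gene lists, in blocks by role; red members rose, blue members fell, grey members did not pass and black bars are list medians. Matrix lists lie to the right, with a fibrillar collagen median of 2.50, while potassium channel subunits lie to the left with a median of -0.48.

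Growth factor signalling had few calls. No TGF-beta ligand or receptor of 14 passed (median 0.21). Tgfb2, a ligand, came nearest, with 6.87, 5.77 and 6.76 on the TAC arrays, against 5.42, 5.12 and 5.60 on the sham arrays (difference 1.08 ± 0.30, adjusted p = 0.0539). Of 11 effectors and inhibitors only Fstl3, a secreted inhibitor of activins, passed. It was at least 1.12-fold higher (adjusted p = 0.0236) and passed in 7 of the 9 fits that tested it. Fstl3 entered the test through the TAC arrays alone, which fixed the direction of its difference, so these fits lend it no separate support. Integrin subunits, the receptors that hold cells to matrix, moved both ways. Itga11, a collagen-binding subunit, was at least 1.78-fold higher, and Itga9 rose by 0.90 ± 0.17, while the laminin-binding muscle subunit Itga7 differed by -0.58 ± 0.15 and Itgb6 by -1.15 ± 0.30, both falls (adjusted p = 0.0432, 0.0133, 0.0383 and 0.0462). These calls held in 5, 10, 4 and 3 of the 12 fits.

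Cytoskeletal genes and the calcium-binding annexins and S100 proteins had positive medians. Of 24 actin cytoskeleton genes 3 rose and 21 had a positive difference (median 0.51), and without sham array 2 the median was 0.24 and none passed. Zyx, which encodes the focal adhesion protein zyxin, measured 11.66, 11.01 and 11.26 on the TAC arrays, against 10.53, 10.18 and 10.19 on the sham arrays (difference 1.01 ± 0.23, adjusted p = 0.0287, 8 of the 12 fits). For Actb, non-muscle beta actin, the brightest probe rose by 1.11 ± 0.21 (adjusted p = 0.0131), but its other 4 probes differed by 0.50, 0.29, -0.15 and -0.17 and did not pass. Actb passed in 9 of the 12 fits. Without TAC array 1 and without TAC array 3 another Actb probe was the brightest and differed by 0.18 and 0.44 (adjusted p = 0.687 and 0.364), and without sham array 2 the difference was 0.94 (adjusted p = 0.061). Annexins and S100 proteins rose for 5 of 16 (median 0.76), among them S100a11 by 1.64 ± 0.36, Anxa2 by 1.53 ± 0.33 and Anxa4 by 1.14 ± 0.22. The adjusted p-values were 0.0232, 0.0231 and 0.0133, and without TAC array 3 they were 0.0885, 0.0938 and 0.0600.

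Among the genes of the muscle cells the classical hypertrophy markers rose. Nppa, which encodes atrial natriuretic peptide, measured 14.82, 14.97 and 14.73 on the TAC arrays, against 13.78, 12.75 and 13.10 on the sham arrays, and rose by 1.63 ± 0.29 (adjusted p = 0.00957). Nppb, for B-type natriuretic peptide, measured 13.72, 13.68 and 13.38 on the TAC arrays, against 12.52, 12.54 and 12.44 on the sham arrays, a rise of 1.09 ± 0.20 (adjusted p = 0.0103). Acta1, the skeletal muscle actin of the fetal heart, measured 14.54, 14.49 and 14.58 on the TAC arrays, against 12.62, 12.61 and 12.95 on the sham arrays, and rose by 1.81 ± 0.26 (adjusted p = 0.00331). All 3 were steady, with closely grouped TAC arrays that lay above every sham array. Nppa is also among the 5 tested atrial cardiomyocyte markers. Their mean was 9.73, 9.92 and 8.89 on the TAC arrays, against 10.32, 7.93 and 9.22 on the sham arrays. Both this mean and Nppa were highest on sham array 1 and lowest on sham array 2 of the sham arrays. The part of atrial cells in the rise of Nppa was not tested. Other members of the natriuretic list, 4 of 6, did not pass.

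Myosin and associated genes were split. Myh7, the slow beta myosin heavy chain, measured 11.75, 9.02 and 10.35 on the TAC arrays, against 8.10, 7.97 and 7.30 on the sham arrays, and rose by 2.59 ± 0.52, or 6.01-fold (adjusted p = 0.0174). Array 1 was the highest and array 2 the lowest of its TAC arrays, the call held in 9 of the 12 fits, and without TAC array 3 the adjusted p was 0.0653; of its 3 probes, with differences of 2.59, 2.16 and 1.83, the last did not pass. Mybpc2, the fast skeletal form of myosin-binding protein C, measured 10.04, 9.41 and 9.60 on the TAC arrays, against 7.47, 7.54 and 7.66 on the sham arrays, a steady rise of 2.12 ± 0.23 (adjusted p = 5.79e-04). Myl1, a myosin light chain of fast and fetal muscle, rose by 1.13 ± 0.21 (adjusted p = 0.0116) and lost its call without TAC array 3 (adjusted p = 0.0554). Mhrt, a long non-coding RNA transcribed antisense to Myh7, went the other way, with 7.0, 8.17 and 7.24 on the TAC arrays, against 8.41, 9.0 and 9.39 on the sham arrays, a fall of -1.46 ± 0.31 (adjusted p = 0.0204, 8 of the 12 fits). Myh6, the fast alpha heavy chain of the adult mouse ventricle, measured 14.59, 14.64 and 14.29 on the TAC arrays, against 14.76, 14.70 and 14.79 on the sham arrays, and its difference of -0.24 ± 0.13 did not pass (adjusted p = 0.305). The TAC values of Myh6 all lay below the sham values.

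Promoters of 4 of these genes are shown because they hold the letters of an M-CAT element, the site bound by TEAD factors in muscle genes. Nppa, a steady riser, and the proximal Myh7 start have no match in their windows, while Myh6, which did not pass, has one. They are the 250 bases before the RefSeq start in GRCm38.p6, written 5′ to 3′ on the gene's strand; capitals mark matches to the 6 motifs searched on both strands. Acta1 lies at chr8:123894776-123895025 (minus strand) with an M-CAT match, a CArG box, which serum response factor binds, and TATAAA. Nppb lies at chr4:147985650-147985899 (plus strand) with an M-CAT match and TATAAA. Myh7 lies at chr14:54994627-54994876 (minus strand), the more distal of its 2 listed starts, and Mhrt at chr14:54968537-54968786 (plus strand), each with an M-CAT match.
Acta1: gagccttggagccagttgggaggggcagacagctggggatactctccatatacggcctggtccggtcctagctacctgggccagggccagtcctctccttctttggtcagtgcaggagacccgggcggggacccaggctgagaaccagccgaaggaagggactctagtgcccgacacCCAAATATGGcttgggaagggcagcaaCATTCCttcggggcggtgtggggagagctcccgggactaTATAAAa
Nppb: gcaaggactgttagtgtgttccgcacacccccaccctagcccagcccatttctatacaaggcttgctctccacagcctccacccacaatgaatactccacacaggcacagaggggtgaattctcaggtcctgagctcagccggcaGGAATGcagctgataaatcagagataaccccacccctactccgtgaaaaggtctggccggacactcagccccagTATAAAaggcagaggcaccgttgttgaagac
Myh7: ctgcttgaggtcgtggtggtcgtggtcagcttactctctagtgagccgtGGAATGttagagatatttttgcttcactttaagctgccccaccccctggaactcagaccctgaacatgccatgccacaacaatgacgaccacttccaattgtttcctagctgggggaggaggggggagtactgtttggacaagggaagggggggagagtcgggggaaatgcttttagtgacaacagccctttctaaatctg
Mhrt: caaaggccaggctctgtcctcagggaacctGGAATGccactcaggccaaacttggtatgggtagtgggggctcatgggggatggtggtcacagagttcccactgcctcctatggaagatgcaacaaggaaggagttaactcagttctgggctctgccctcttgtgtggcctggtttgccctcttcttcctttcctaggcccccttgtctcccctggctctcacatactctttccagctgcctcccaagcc
The M-CAT letters CATTCC were present in 14.4% of 327 promoters of genes that rose, in 14.0% of 150 promoters of genes that fell, in 10.7% of 9182 promoters of all genes tested and in 12.6% of all 32851 promoters in the table. The AP-1 letters TGANTCA were present in 8.87% of promoters of genes that rose, in 2.67% of those of genes that fell, in 4.36% of those tested and in 6.75% of all. TATAAA was present in 11.6%, 4.00%, 6.99% and 12.4% of these sets, TTCNNNGAA in 7.03%, 8.00%, 5.88% and 7.02%, the CArG box in 2.14%, 3.33%, 1.40% and 1.47%, and the MEF2 site in 1.22%, 1.33%, 1.72% and 2.92%. Of the changed genes, 268 that rose and 106 that fell had a promoter in the table. A match describes the letters and shows no binding.

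Z-disc and stretch-responsive genes rose for 5 of 19 and fell for 1 (median 0.29). Xirp2, an actin-binding repeat protein of the intercalated disc and Z-disc, measured 13.19, 12.90 and 13.29 on the TAC arrays, against 11.93, 11.84 and 11.65 on the sham arrays, and rose by 1.32 ± 0.18 (adjusted p = 0.00210). Fhl1, a LIM protein that couples stretch to hypertrophy signals, measured 12.54, 12.19 and 12.46 on the TAC arrays, against 11.33, 11.11 and 11.25 on the sham arrays (difference 1.17 ± 0.14, adjusted p = 0.00127). Pdlim3, an actinin-associated LIM protein, rose by 1.23 ± 0.18 (adjusted p = 0.00319). These 3 were steady. Synpo2l, an actin-bundling Z-disc protein, rose by 0.70 ± 0.19 (adjusted p = 0.0472, 2 of the 12 fits). Ankrd1, a stretch-responsive ankyrin repeat protein, rose by 0.92 ± 0.19 (adjusted p = 0.0182; 0.0711 without sham array 2), while Ky, a muscle protease-like Z-disc protein, differed by -1.24 ± 0.28, a fall (adjusted p = 0.0254; 0.103 without sham array 2). Of 11 thin filament genes Lmod2, which elongates thin filaments, also rose (0.63 ± 0.14, adjusted p = 0.0215, 7 of the 12 fits); the list median was -0.16, and 0.24 under median scaling, which is -0.21 relative to all genes. Des, the muscle intermediate filament desmin, rose by 0.82 ± 0.16 (adjusted p = 0.0145; 0.0642 without TAC array 3).

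Potassium channel subunits gave falls and no rises. Of 13 potassium channel subunits 12 had a negative difference and 3 fell (median -0.48, and -0.55 relative to all genes under median scaling, where the median itself was -0.10). Kcnip2, the accessory subunit of the transient outward current that shortens the mouse action potential, measured 7.96, 8.10 and 7.11 on the TAC arrays, against 8.69, 9.03 and 9.04 on the sham arrays, and differed by -1.19 ± 0.25 (adjusted p = 0.0185). Its other 2 probes differed by -0.76 and -0.50 and did not pass. Kcnj3, an inward rectifier gated by G proteins, differed by -0.70 ± 0.19, and Abcc9, the regulatory subunit of the ATP-sensitive channel, by -0.68 ± 0.13 (adjusted p = 0.0480 and 0.0137). Scn4b, a beta subunit of the sodium channel, measured 7.46, 7.77 and 7.19 on the TAC arrays, against 7.90, 8.99 and 8.95 on the sham arrays (difference -1.14 ± 0.28, adjusted p = 0.0364); its second probe differed by -0.25. None of these falls was steady: Kcnip2 passed in 9 of the 12 fits, Abcc9 in 11, Scn4b in 7 and Kcnj3 in 2, and without sham array 2 the adjusted p was 0.0711, 0.0678, 0.143 and 0.176.

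Among calcium handling genes 1 of 14 fell (median -0.01). Hrc, the histidine-rich calcium-binding protein of the sarcoplasmic reticulum, differed by -0.70 ± 0.16 (adjusted p = 0.0243, 8 of the 12 fits). Atp2a2, the calcium pump SERCA2, measured 14.85, 14.76 and 14.97 on the TAC arrays, against 14.95, 14.82 and 14.87 on the sham arrays by its brightest probe (difference -0.01 ± 0.12, adjusted p = 0.964). A dimmer Atp2a2 probe fell by 0.86 (adjusted p = 0.0171), so the probes disagree. Tnni3k, a kinase that binds cardiac troponin I, measured 7.68, 8.42 and 7.93 on the TAC arrays, against 9.06, 9.08 and 9.08 on the sham arrays, a fall of -1.06 ± 0.21 (adjusted p = 0.0152; 0.0646 without TAC array 3). Its sham arrays were nearly equal and all lay above the TAC arrays. The list named calcineurin and MEF2 targets holds mainly components of that pathway: calcineurin subunits, NFAT and MEF2 factors and histone deacetylases. In it only Nfatc4, an NFAT factor, passed (1 of 12), at least 1.06-fold higher, in 2 of the 12 fits (adjusted p = 0.0441).

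Genes of energy metabolism moved little as lists, with single genes standing out. Fatty acid uptake and oxidation had 24 of 27 genes with a negative difference and a median of -0.28, and 1 fell. Under median scaling that median was 0.13, which is -0.32 relative to all genes. Etfb, an electron transfer flavoprotein subunit, measured 13.44, 13.37 and 13.30 on the TAC arrays, against 13.89, 14.21 and 13.90 on the sham arrays (difference -0.63 ± 0.14, adjusted p = 0.0283; 0.126 without sham array 2). No gene of 24 in the respiratory chain or of 18 in the tricarboxylic acid cycle passed; the medians were -0.08 and -0.16, and under median scaling 0.11 and 0.21, which are -0.34 and -0.24 relative to all genes. Citrate synthase, from Cs, measured 12.39, 12.65 and 12.38 on the TAC arrays, against 12.96, 13 and 12.94 on the sham arrays, and its difference of -0.49 ± 0.13 just missed the threshold (adjusted p = 0.0538).

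Single genes of glucose and glycogen metabolism changed. Slc2a4, the insulin-responsive glucose transporter GLUT4, measured 9.99, 10.19 and 9.50 on the TAC arrays, against 10.72, 10.86 and 10.69 on the sham arrays, a fall of -0.87 ± 0.18 (adjusted p = 0.0203). Pdk2, which inhibits pyruvate dehydrogenase, differed by -0.87 ± 0.23, also a fall, while Pfkp, a phosphofructokinase form, rose by 1.05 ± 0.26 (adjusted p = 0.0441 and 0.0354). These 3 were the only calls among 19 glycolytic genes, and they held in 9, 3 and 7 of the 12 fits. Phkg1, the muscle catalytic subunit of phosphorylase kinase that starts glycogen breakdown, measured 5.65, 6.98 and 6.33 on the TAC arrays, against 7.55, 7.90 and 7.43 on the sham arrays, a fall of -1.31 ± 0.28 (adjusted p = 0.0225; 0.0938 without sham array 2). Ak4, a mitochondrial adenylate kinase, measured 6.79, 7.10 and 7.10 on the TAC arrays, against 7.95, 8.02 and 8.00 on the sham arrays, a steady fall of -0.99 ± 0.16 (adjusted p = 0.00699). The cytosolic form Ak1 differed by -0.53 ± 0.14 (adjusted p = 0.0427, 3 of the 12 fits), also a fall. Thrsp, a thyroid hormone-responsive regulator of lipid synthesis, measured 5.65, 6.0 and 5.39 on the TAC arrays, against 6.78, 7.04 and 6.92 on the sham arrays, a fall of -1.23 ± 0.24 (adjusted p = 0.0144; 0.0705 without TAC array 3). Scd2, a fatty acid desaturase, differed by -0.67 ± 0.18 and passed in 2 of the 12 fits (adjusted p = 0.0456).

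Nmrk2, a muscle kinase that makes NAD from nicotinamide riboside, measured 9.81, 9.53 and 9.76 on the TAC arrays, against 6.99, 7.07 and 7.39 on the sham arrays, a steady rise of 2.55 ± 0.23 on TAC arrays that were nearly equal (adjusted p = 1.87e-04). A second probe rose by 2.68, but the other fell by 0.88 (adjusted p = 0.0282), so its probes disagree.

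Protein folding genes of the endoplasmic reticulum fell for 3 of 15, and 13 of the 15 had a negative difference (median -0.17, and -0.10 relative to all genes under median scaling, where it was 0.35). Calr, the calcium-binding chaperone calreticulin, measured 7.40, 7.23 and 6.30 on the TAC arrays, against 8.08, 8.14 and 8.48 on the sham arrays, a fall of -1.26 ± 0.30 (adjusted p = 0.0315; 0.124 without TAC array 3). Pdia4, a disulfide isomerase, measured 6.77, 6.93 and 6.48 on the TAC arrays, against 7.56, 7.73 and 7.53 on the sham arrays, a steady fall of -0.88 ± 0.15 (adjusted p = 0.00743). Sdf2l1, a cofactor of the main luminal chaperone, was detected on all sham arrays and on no TAC array and was at least 1.68-fold lower (adjusted p = 0.0200; 0.0711 without sham array 2). Of 14 genes of the amino acid stress response Psat1 and Asns, which make serine and asparagine, rose by 0.98 ± 0.21 and 0.61 ± 0.14 (adjusted p = 0.0212 and 0.0254, each in 8 of the 12 fits). Of 21 cytosolic ribosomal protein genes Rpl3 and Rpl4 rose, by 0.84 ± 0.15 and 0.52 ± 0.14 (adjusted p = 0.0102 and 0.0453). The Rpl3 call was lost without sham array 2 (adjusted p = 0.0531), and Rpl4 passed in 2 of the 12 fits. No gene of 23 in the proteasome or of 15 among cytosolic chaperones passed, and of 18 atrophy and autophagy genes only Ulk1, the kinase that starts autophagy, fell (-0.84 ± 0.18, adjusted p = 0.0228, 8 of the 12 fits).

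Immune genes rose next to the matrix. Of 21 cytokine, chemokine and acute-phase genes 8 rose (median 1.09, and 0.63 without sham array 2, where 3 rose). Il1b, the inflammatory cytokine interleukin 1 beta, measured 9.27, 7.86 and 9.0 on the TAC arrays, against 6.45, 5.87 and 6.41 on the sham arrays, and rose by 2.47 ± 0.36 (adjusted p = 0.00364). The chemokine Ccl4 measured 8.72, 8.98 and 9.01 on the TAC arrays, against 6.94, 6.12 and 7.55 on the sham arrays (difference 2.04 ± 0.33, adjusted p = 0.00613). Il1b, Ccl4 and Serpina3n were the steady members. Cxcl2, a neutrophil attractant, rose by 2.38 ± 0.44, Lcn2, an iron-sequestering lipocalin, by 1.86 ± 0.44, and Osm, a cytokine of the interleukin 6 family, by 1.57 ± 0.30 (adjusted p = 0.0128, 0.0311 and 0.0135). Ccl3, a macrophage chemokine, rose by 1.31 ± 0.29 and Cxcl16, a membrane-bound chemokine, by 1.28 ± 0.28 (adjusted p = 0.0236 and 0.0228). Without sham array 2 the adjusted p of these 5 was 0.0576, 0.105, 0.0620, 0.0938 and 0.0851.

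Macrophage and monocyte markers rose for 5 of 10, and all 5 were steady. Lgals3, the lectin galectin-3 of activated macrophages, measured 9.84, 8.69 and 9.31 on the TAC arrays, against 7.23, 5.76 and 6.79 on the sham arrays, and rose by 2.68 ± 0.35 (adjusted p = 0.00184). Adgre1, the classical surface marker of mouse macrophages, measured 7.89, 7.34 and 8.56 on the TAC arrays, against 6.22, 5.60 and 6.49 on the sham arrays (difference 1.83 ± 0.28, adjusted p = 0.00480). Ctss, a lysosomal protease of antigen-presenting cells, and Cx3cr1, the fractalkine receptor, were detected on all TAC arrays and no sham array, at least 2.07-fold and 1.32-fold higher (adjusted p = 0.00613 and 0.00732). Of 11 complement and Fc receptor genes all had a positive difference and 4 rose, the receptors Fcgr4 by 1.79 ± 0.33 and Fcgr2b by 1.08 ± 0.25, the common Fc receptor gamma chain Fcer1g by 1.24 ± 0.30 and the signalling adaptor Tyrobp by 0.89 ± 0.17 (adjusted p = 0.0128, 0.0285, 0.0338 and 0.0142); without sham array 2 none of the 4 passed. Interferon response genes had 1 of 13 higher, Ifi27l2a (1.80 ± 0.47, adjusted p = 0.0466, 2 of the 12 fits), and antigen presentation genes 0 of 14, with medians of 0.66 and 0.44. Without sham array 2 these medians were 0.32 and 0.11. H2-Aa, a class II molecule, measured 9.16, 8.83 and 9.44 on the TAC arrays, against 8.03, 6.78 and 8.25 on the sham arrays, and its difference of 1.46 ± 0.42 did not pass (adjusted p = 0.0661).

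Stress-responsive metal and heme genes rose for 4 of 19 in the list of metallothioneins and antioxidant enzymes. Gpx3, the secreted glutathione peroxidase, rose by 1.58 ± 0.36, and the metallothioneins Mt1 and Mt2 rose by 0.87 ± 0.18 and 1.06 ± 0.24 (adjusted p = 0.0262, 0.0192 and 0.0269). Hmox1, which degrades heme, was at least 2.01-fold higher (adjusted p = 0.0421). These calls held in 7, 8, 8 and 6 of the 12 fits. Erythroid markers, 3 genes, averaged 11.17, 10.44 and 11.28 on the TAC arrays, against 9.31, 10.63 and 10.85 on the sham arrays. No circadian clock gene of 13 passed, and of 18 immediate early genes only Klf6 rose (0.78 ± 0.19, adjusted p = 0.0351; 0.142 without sham array 2).

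Cell cycle and chromatin genes are of interest because the hairpin targets a replication-coupled protein. Most of the tested mitosis genes were near the floor of detection. On the sham arrays 7 of 16 replication genes and 1 of 9 DNA methylation genes and readers were undetected. Of 16 replication genes Mcm6, a subunit of the replicative helicase, was at least 1.79-fold higher (adjusted p = 0.0207, 8 of the 12 fits). Without TAC array 3 the adjusted p of Mcm6 was 0.0958. Its other 2 probes differed by 0.44 and 0.05 and did not pass. Of 10 mitosis genes Prc1, which bundles spindle midzone microtubules, measured 5.98, 6.32 and 6.51 on the TAC arrays, against 4.94, 4.45 and 4.60 on the sham arrays, at least 2.06-fold higher (adjusted p = 0.0172; 0.0830 without TAC array 3). Cdca8, of the chromosomal passenger complex, measured 5.20, 5.02 and 5.22 on the TAC arrays, against 4.40, 4.27 and 4.36 on the sham arrays, and passed (adjusted p = 0.0135), with no fold given because its bound was under 1. Of these 10 mitosis genes 8 were detected after TAC but on no sham array, and 1 on no TAC or sham array. With bounds in place of fitted values the list median was 0. Of 9 tested DNA methylation genes and readers only Mbd3 fell (-0.67 ± 0.17, adjusted p = 0.0370; 0.151 without TAC array 3). Dnmt1 measured 6.20, 6.29 and 6.42 on the TAC arrays, against 5.61, 6.05 and 6.03 on the sham arrays, and did not pass (0.41 ± 0.20, adjusted p = 0.253). Among 15 angiogenic and hypoxia genes Epas1, the hypoxia factor HIF-2 alpha, fell (-0.79 ± 0.18, adjusted p = 0.0271; 0.111 without TAC array 3).

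Markers of other cell types moved unevenly. Fibroblast markers rose for 5 of 12, of which Col1a1, Col1a2, Mfap5 and Lum are also matrix genes and Pi16, an adventitial fibroblast marker, rose by 1.76 ± 0.47 (adjusted p = 0.0486, 3 of the 12 fits). Of the 12 fibroblast markers 10 had a positive and 2 a negative difference, the lowest being -0.94. Their median was 0.90, and 0.46 without sham array 2. Endothelial markers rose for 1 of 13, Cldn5, a tight junction claudin, which measured 7.25, 6.82 and 7.29 on the TAC arrays, against 6.30, 5.66 and 6.48 on the sham arrays (difference 0.97 ± 0.25, adjusted p = 0.0433; 0.163 without sham array 2). Among 10 smooth muscle and pericyte markers Des rose and Smtn fell (-0.67 ± 0.14, adjusted p = 0.0189, 8 of the 12 fits), while Acta2 and Myh11, the smooth muscle actin and myosin, were detected on all shUhrf1 arrays, as was Smtn, and Tagln and Cnn1 on none. The 2 tested neutrophil markers, S100a8 and S100a9, differed by 1.59 ± 0.82 and 1.33 ± 0.55 and did not pass (adjusted p = 0.284 and 0.179). S100a9 was detected on all TAC arrays and on no sham array, so its difference is set against signals not above background.

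The remaining large falls joined no list. Ano10, a member of the anoctamin family of membrane proteins, measured 8.42, 7.96 and 7.74 on the TAC arrays, against 9.65, 10 and 9.88 on the sham arrays, a fall of -1.80 ± 0.28, or 3.49-fold (adjusted p = 0.00453). Pigh, a subunit of the enzyme that starts glycosylphosphatidylinositol anchors, measured 4.39, 4.53 and 5.05 on the TAC arrays, against 6.43, 6.24 and 5.88 on the sham arrays (difference -1.53 ± 0.20, adjusted p = 0.00184), and was detected on 1 TAC array. Its second probe differed by -0.32 and did not pass. Ppil1, a spliceosomal prolyl isomerase, measured 5.98, 6.29 and 5.91 on the TAC arrays, against 7.15, 7.02 and 7.09 on the sham arrays (difference -1.03 ± 0.15, adjusted p = 0.00406). Cmtm8, a membrane protein of the chemokine-like factor family, differed by -1.18 ± 0.22, Ttll1, a tubulin polyglutamylase subunit, by -1.07 ± 0.23 and Dennd4b, an exchange factor for Rab proteins, by -1.04 ± 0.23 (adjusted p = 0.0131, 0.0212 and 0.0228). Without TAC array 3 the adjusted p of these last 3 was 0.0796, 0.0938 and 0.0868.

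The genes that changed with the Uhrf1 hairpin were also read with the scrambled hairpin, where the TAC shctrl and sham shctrl arrays are separate libraries that entered their choice through the shared normalization, the spread and the filter on detection over all 12 arrays. With the 6 shUhrf1 arrays alone 8313 genes passed that filter. Among the genes that rose, the median response was 1.01 with the Uhrf1 hairpin and 0.97 with the scrambled hairpin, and 341 of 346 were positive with the scrambled hairpin too, against 3976 of all 8746 genes (45.5%). Among those that fell the medians were -0.73 and -0.59, and 138 of 139 were negative with the scrambled hairpin, against 4770 of all genes (54.5%). Among the genes that rose and were detected on a sham array of either hairpin, 267 of 272 were positive with the scrambled hairpin. The exceptions were 0610009L18Rik, Fam177a, Ntsr2, Stk17b and Yme1l1, which rose here, and Cyp4b1, which fell here; these 6 were singled out after their values were seen. Side by side, the response with the Uhrf1 and the scrambled hairpin was 3.73 and 2.43 for Serpina3n, 1.81 and 1.71 for Acta1, 1.09 and 1.06 for Nppb, and -1.80 and -2.47 for Ano10. These 4 genes were detected on all 12 arrays, except Serpina3n on 1 sham shctrl array. Col1a1 was detected on no sham shctrl array and was at least 8.54-fold higher after TAC with the scrambled hairpin, with 8.50, 8.22 and 8.64 on the TAC shctrl arrays, against 4.73, 5.08 and 4.49 on the sham shctrl arrays.

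Whether the TAC response differed between the hairpins was tested as an interaction. With limma 0 of 8746 genes (0%) passed at an adjusted p under 0.05, and 866 (9.9%) had an unadjusted p under 0.05, of which 464 (5.31%) had the lower response with the Uhrf1 hairpin and 402 (4.6%) the higher. The smallest adjusted p was 0.162. Leaving out sham shUhrf1 array 2 gave 98 genes, 95 with the lower response under the Uhrf1 hairpin, and leaving out TAC shctrl array 1 gave 27, all with the lower response. Each other fit that left out 1 array gave 0, as did median scaling, the authors' deposited value table and the replicate block.

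The 8 genes with the smallest p of that difference were Cdc20, Bcl6b, Fhod1, Col6a2, Ift122, Dgcr8, Fli1 and Cdh5, and for all but Dgcr8 the response was the lower one with the Uhrf1 hairpin. Cdc20, the activator of the anaphase-promoting complex, measured 4.91, 5.28 and 5.03 on the TAC shUhrf1 arrays, against 4.49, 4.67 and 4.41 on the sham shUhrf1 arrays, and 6.35, 6.59 and 7.05 on the TAC shctrl arrays, against 4.49, 4.38 and 4.63 on the sham shctrl arrays. No sham array of either hairpin detected it, and the difference between the fitted responses was -1.62 ± 0.25 (adjusted p = 0.162). Against the lowest detected signals Cdc20 was at least 2.47-fold higher after TAC with the scrambled hairpin, and no bound above 1 was reached with the Uhrf1 hairpin. Cdh5, the cadherin of endothelial junctions, measured 6.27, 5.97 and 5.97 on the TAC shUhrf1 arrays, against 6.95, 5.76 and 6.78 on the sham shUhrf1 arrays, and 7.05, 7.86 and 8.15 on the TAC shctrl arrays, against 5.98, 5.45 and 5.98 on the sham shctrl arrays. The difference was -2.31 ± 0.45 (adjusted p = 0.180). Bcl6b and Fli1, transcription factors known from endothelial cells, were detected on all TAC shctrl arrays and on no array of the other 3 groups. They entered the test through the TAC shctrl arrays alone, which fixed the direction of their difference. Of the 464 genes with the lower response at an unadjusted p under 0.05, 11 entered in this way. For Col6a2, a type VI collagen chain, the response was 0.83 with the Uhrf1 hairpin and 2.59 with the scrambled hairpin, where no sham array detected it and the bound was at least 3.50-fold. For the formin Fhod1, detected on all arrays, the responses were 0.02 and 1.29. Ift122, of the intraflagellar transport complex, had responses of -0.10 and 1.71, with 2 sham shUhrf1 arrays and 1 sham shctrl array detecting it. Dgcr8, which works with Drosha in microRNA processing, had the higher response with the Uhrf1 hairpin, 0.38, against -0.76 with the scrambled hairpin. No sham shUhrf1 array and no TAC shctrl array detected Dgcr8, so both responses include signals not above background. None of the 8 passed with all 12 arrays, and all 8 passed without sham shUhrf1 array 2, the array that was low for endothelial, fibroblast and macrophage markers. The 8 were picked by their p in these same data, and Bcl6b and Fli1 among them had a fixed direction. Their passing without that array is thus no independent support. Without TAC shctrl array 1 only 4 of the 8 passed, Cdc20, Cdh5, Col6a2 and Ift122, while Dgcr8 and Fhod1 had an adjusted p of 0.0803 and 0.0661, and Bcl6b and Fli1 were no longer tested.

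Lists of genes were read for the same difference, in which no gene passed with all 12 arrays. The share of all genes with the lower response was not counted, so the counts below have no share to be set against. All 13 endothelial markers had the lower response with the Uhrf1 hairpin, with a median of 0.05, against 1.70 with the scrambled hairpin. Without sham shUhrf1 array 2 the first of these medians was -0.41, and 9 of the 98 genes that passed without sham shUhrf1 array 2 were among them, as were 2 of the 27 that passed without TAC shctrl array 1. Their mean level was 7.27 to 7.72 on the TAC shUhrf1 arrays, against 6.50 to 7.92 on the sham shUhrf1 arrays, and 8.20 to 9.15 on the TAC shctrl arrays, against 7.03 to 7.33 on the sham shctrl arrays. Other lists were read in the same way. The response was the lower one with the Uhrf1 hairpin for 11 of 12 fibroblast markers (median 0.90, against 1.73 with the scrambled hairpin). It was also the lower one for 8 of 10 smooth muscle and pericyte markers (0.18, against 0.67). For 9 of 11 cardiomyocyte markers it was lower as well, but both medians were small (-0.01, against 0.02). Over all genes tested the medians were 0.01 and -0.04. All 10 mitosis genes had the lower response with the Uhrf1 hairpin (0.49, against 1.57). Of these, 8 were detected after TAC but on no sham shUhrf1 array, and 1 on no shUhrf1 array. With bounds in place of fitted values the median with the Uhrf1 hairpin was 0. Genes that entered through the TAC shctrl arrays alone have a fixed direction, and their number in this list was not counted. The response was the higher one with the Uhrf1 hairpin for 8 of 10 macrophage and monocyte markers (1.11, against 0.73) and for all 3 erythroid markers (0.78, against -1.45). The part of these cells in the difference was not tested.

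**Figure D5:**
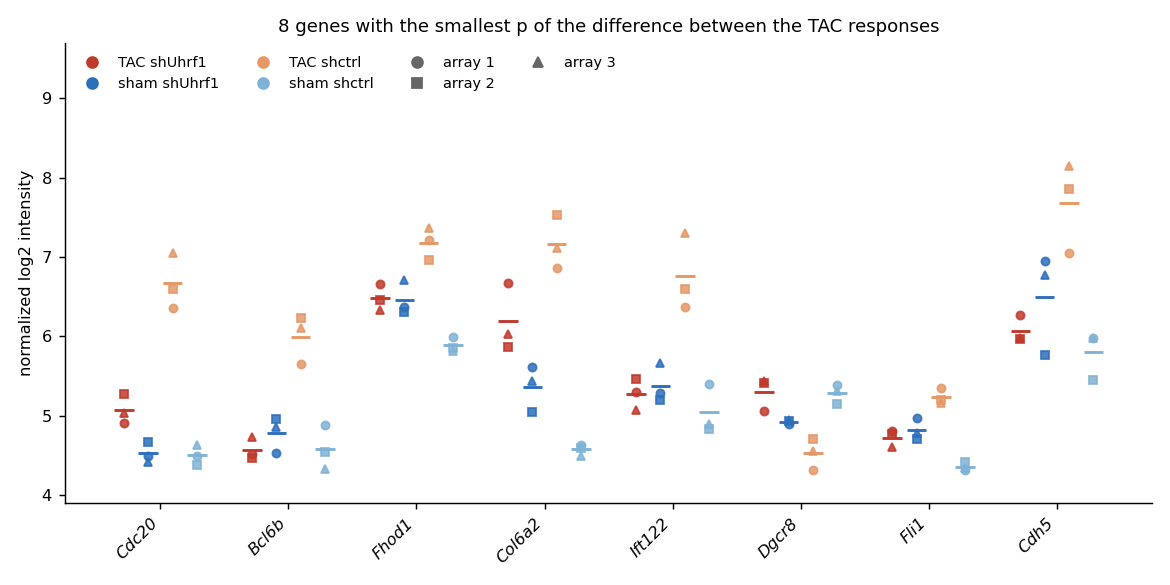
Normalized log2 intensity on each of the 12 arrays for the 8 genes with the smallest p of the difference between the TAC responses; within a gene the groups run TAC shUhrf1, sham shUhrf1, TAC shctrl, sham shctrl, and bars are means of 3 arrays. For the 7 genes other than Dgcr8 the TAC shctrl arrays lie above every other array, and none of the 8 genes passed (smallest adjusted p 0.162). Among the 7, Bcl6b and Fli1 entered the test through the TAC shctrl arrays alone.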

How the data were processed

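RNA of isolated mouse cardiomyocytes was measured on 12 1-colour Illumina arrays, 3 in each of 4 groups given by the labels. The deposited table, per the file headers, holds a non-normalized intensity and a detection p-value for each of 45281 probes and each array. The authors also deposited a table of log2 values, for which the submitters' processing notes name lumi (its version is not given in the sources used here); it served as an alternative. Intensities were background-corrected with the detection p-values, offset by 16, quantile-normalized and put on a log2 scale by neqc (limma 3.58.1, R 4.3.3). Probes below a detection p of 0.01 on 3 or more arrays were kept, 1 mean per group was fitted to all 12 arrays with lmFit and eBayes, and p-values were adjusted by Benjamini-Hochberg over the 15118 probes. The brightest probe represents a gene. Precision is limited by the number of arrays. An exact permutation test of 3 against 3 arrays cannot go below 0.1.

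Of the probes, 34885 had 1 gene symbol in GEO's platform annotation, which can be old, 18 had several and 10378 were unnamed here. The genes named are Uhrf1 and 11 preset genes, the 15 largest rises and falls among genes that passed with groups that did not overlap, the 8 smallest p-values of the difference between the TAC responses, and list members that passed, or those with the smallest p where none passed. Members, lists and tests were chosen with earlier results of these data known. Promoters are RefSeq's (GRCm38.p6). The fit was tested on simulated data first. Alternatives changed the background correction, scaling, filter, probe choice, block and arrays.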

Additional observations from a re-analysis of the deposited data

Results flagged for a closer look

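Dgcr8, a partner of Drosha in microRNA processing, is listed because its TAC response differed in direction between the hairpins and the difference had an unadjusted p of 0.000115. The response with the Uhrf1 hairpin exceeded that with the scrambled hairpin by 1.14 (log2). All 3 TAC shUhrf1 arrays lay above all 3 sham shUhrf1 arrays, and all 3 TAC shctrl arrays lay below all 3 sham shctrl arrays. After adjustment over all probes the difference did not pass (limma, adjusted p = 0.162). The gene lay near background, detected on all TAC shUhrf1 arrays, no sham shUhrf1 array, no TAC shctrl array and 1 sham shctrl array.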

How the results depend on the processing

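Over 2703 combinations of a named gene and an alternative setting, 2156 kept direction and call, 511 kept the direction and lost the call, 27 gained one and 9 reversed, all of the last in genes that did not pass. The reversed differences were 0.037 and 0.023 for Atp2a2 (without TAC array 2, without sham array 1; range without 1 array -0.072 to 0.037), 0.0036 for Cdh5 (median scaling), -0.068, -0.0256 and -0.054 for Fhod1 (without TAC array 1, sham array 1 and sham array 2; range -0.068 to 0.15) and 0.17, 4e-04 and 0.038 for Ift122 (median scaling, without TAC array 3, without sham array 3; range -0.20 to 0.038). The 485 genes changed by TAC became 2018 under median scaling, which moved the median of all genes to 0.45, 238 with no filter on dim probes, where more probes were tested, and 289 with only the 6 shUhrf1 arrays, which are fewer. They ranged from 117 to 512 when 1 array was left out, and lay between 382 and 596 under the remaining settings. For the difference between the TAC responses the count was 1 with no filter (Olfr267) and ranged from 0 to 98 without 1 array. Why single arrays moved these counts was not tested. Same-numbered TAC and sham arrays deviated together with r = 0.015, 0.25 and 0.13. TAC arrays 2 and 3 correlated best with the sham array of the same number. TAC array 1 correlated slightly better with sham array 3 (0.024) than with sham array 1 (0.015). The labels name no pairing, so the numbers were not treated as pairs. With the replicate number as a block 478 genes changed, 424 of them shared, and 0 differed between the responses. Signal near background limits the 81 rises whose sham arrays did not detect the gene and 4 falls whose TAC arrays did not.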
